A study of Mus musculus with 12 samples.

Results

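The chromatin of 6 transcription factor loci, *Tcf7*, *Lef1*, *Tox*, *Tox2*, *Satb1* and *Bcl11b*, was examined by ATAC-seq in thymic invariant natural killer T (iNKT) cells. A locus was the gene body in GENCODE vM21 with 10 kb on either side, and each region of the table that overlapped it was a member. This gave 129 of 63309 regions: 14 at *Tcf7*, 21 at *Lef1*, 21 at *Tox*, 8 at *Tox2*, 23 at *Satb1* and 42 at *Bcl11b*. The rule itself uses positions and no measured value.

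*Tcf7* encodes TCF1 and *Lef1* encodes LEF1, related HMG-box proteins that bind DNA on their own or with β-catenin and act early in T cell development. *Tox* and *Tox2* encode HMG-box proteins of the TOX family, which are known from thymic selection, from follicular helper cells and from exhausted T cells. *Satb1* encodes a chromatin organizer that is strongly expressed in immature thymocytes, and *Bcl11b* encodes a zinc finger protein needed for T cell commitment. iNKT cells recognize lipids presented by CD1d, and mature in the thymus into subsets that are compared here: iNKT1 cells, which make interferon-γ, iNKT2 cells, which make interleukin 4, and iNKT17 cells, which make interleukin 17.

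There were 6 groups of 2 libraries each: iNKT1, iNKT2 and iNKT17 cells from wildtype C57BL/6 mice, and the same subsets from Hivep3-/- mice on the C57BL/6 background. HIVEP3 is a large zinc finger protein that was studied for its part in iNKT cell development. All cells were untreated and came from thymi of mice 8 to 9 weeks old. Thymi were pooled, the sorted subsets were mixed for the transposition and they were separated again by ICOS and CD138 alone, so that the libraries of a genotype may share a pool. The titles number the 2 libraries of a group as mice, while the methods describe pooled thymi, so that p-values measure only the spread between these libraries, which may be technical. Values are log2 transposase insertions per kb as deposited, here called accessibility, and a region counted as accessible in a group when its linear mean was at least 5 insertions per kb.

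The labels were checked against marker promoters, meaning regions within 1000 bp of a gene start. A gene was given the mean log2 value of its promoter regions, and the values of several genes were summed on the linear scale. *Il17a* lay between 5.59 and 5.91 in the 4 iNKT17 libraries and between -4.05 and -0.78 in the 8 others. *Il23r* lay between 3.81 and 4.19 against -4.05 to -1.67, and *Sdc1*, which encodes the sorted protein CD138, between 4.38 and 4.60 against 2.28 to 2.77. The 4 iNKT1 markers, *Tbx21*, *Il2rb*, *Klrb1c* and *Ifng*, summed to 221 to 225 in iNKT1, 139 to 156 in iNKT2 and 174 to 187 in iNKT17 libraries, with *Il2rb* highest in iNKT17 cells. The 4 iNKT2 markers, *Izumo1r*, *Il4*, *Icos* and *Slamf6*, summed to 127 to 145 in iNKT2 libraries of both genotypes and to 57.7 to 76.0 in iNKT17 libraries. In iNKT1 libraries they summed to 109 and 112 in C57BL/6 but 77.1 and 84.0 in Hivep3-/- cells. *Icos*, whose protein was used in the sort, was not higher in iNKT2 cells, with C57BL/6 means of 5.56 in iNKT1, 5.50 in iNKT2 and 5.53 in iNKT17. None of 5 genes of immature thymocytes, among them *Rag1* and *Ptcra*, had a promoter region in the table. Of 3 B cell and 3 myeloid genes, *Pax5* and *Spi1* had one, at 7.11 to 27.8 and 16.9 to 40.8 insertions per kb, and *Pax5* stood at 7.11 and 8.01 in C57BL/6 against 11.3 and 12.0 in Hivep3-/- iNKT1 libraries. The part of these in the results was not tested. The *Hivep3* locus held 21 regions, and 10 to 20 of them were accessible in each of the 6 groups, so these data do not show the deletion. As a measure that grows with depth, distinct values below or at the median of each library were counted, and their number ranged from 73 to 491 over the 12 libraries.

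Sequences of 8 regions that the results turn on are shown first, as the central 300 bases of each region on the plus strand of mm10 (RefSeq GRCm38.p6). They are the intronic regions of *Tox2*, *Satb1* and *Lef1* that changed most between the genotypes and the *Lef1* and *Bcl11b* regions that differed most between subsets. Capitals mark matches on either strand to any of 8 short motifs: TCAAAG (TCF/LEF), AACCACA (RUNX), GGAAGT (ETS) and AGATAA, which GATA factors bind, with the others for AP-1 (TGANTCA), T-box (AGGTGTGA), NF-κB (GGANTTTCC) and nuclear receptors (AGGTCA). None of the matches printed here overlapped another.
Tox2 intron, 96.0 kb from the gene start, chr2:163299016-163299315: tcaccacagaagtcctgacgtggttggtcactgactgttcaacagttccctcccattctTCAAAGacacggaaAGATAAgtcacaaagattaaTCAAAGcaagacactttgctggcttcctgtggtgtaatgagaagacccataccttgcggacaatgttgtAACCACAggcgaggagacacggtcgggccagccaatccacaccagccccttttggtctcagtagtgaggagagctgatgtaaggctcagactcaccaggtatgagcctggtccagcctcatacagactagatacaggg
Tox2 intron, 51.7 kb from the gene start, chr2:163254649-163254948: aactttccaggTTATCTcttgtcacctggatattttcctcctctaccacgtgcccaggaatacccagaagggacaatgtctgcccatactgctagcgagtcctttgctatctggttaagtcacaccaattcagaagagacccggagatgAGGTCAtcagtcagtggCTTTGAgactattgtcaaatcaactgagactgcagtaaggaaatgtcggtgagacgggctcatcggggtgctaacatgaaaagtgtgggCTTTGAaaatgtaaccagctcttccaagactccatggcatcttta
Satb1 intron, 32.9 kb from the gene start, chr17:51800247-51800546: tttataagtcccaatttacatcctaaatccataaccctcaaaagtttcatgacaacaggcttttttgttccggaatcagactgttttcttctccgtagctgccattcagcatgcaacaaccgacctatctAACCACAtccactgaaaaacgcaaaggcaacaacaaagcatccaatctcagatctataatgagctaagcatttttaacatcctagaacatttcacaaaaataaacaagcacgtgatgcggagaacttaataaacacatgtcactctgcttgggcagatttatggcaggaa
Satb1 intron, 30.2 kb from the gene start, chr17:51802962-51803261: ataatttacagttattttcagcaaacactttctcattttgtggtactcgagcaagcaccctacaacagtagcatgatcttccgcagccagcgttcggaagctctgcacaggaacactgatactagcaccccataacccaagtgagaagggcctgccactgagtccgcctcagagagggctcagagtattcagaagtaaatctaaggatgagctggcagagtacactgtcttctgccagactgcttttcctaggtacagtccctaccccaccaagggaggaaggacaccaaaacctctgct
Lef1 intron, 60.7 kb from the gene start, chr3:131171057-131171356: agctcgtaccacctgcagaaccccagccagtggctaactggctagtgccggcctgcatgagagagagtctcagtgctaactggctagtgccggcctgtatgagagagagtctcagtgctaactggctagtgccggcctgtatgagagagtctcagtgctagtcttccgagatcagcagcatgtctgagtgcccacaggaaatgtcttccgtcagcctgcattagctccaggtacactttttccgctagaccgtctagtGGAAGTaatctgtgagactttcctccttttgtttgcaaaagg
Lef1, past the gene end, 122.2 kb from the gene start, chr3:131232562-131232861: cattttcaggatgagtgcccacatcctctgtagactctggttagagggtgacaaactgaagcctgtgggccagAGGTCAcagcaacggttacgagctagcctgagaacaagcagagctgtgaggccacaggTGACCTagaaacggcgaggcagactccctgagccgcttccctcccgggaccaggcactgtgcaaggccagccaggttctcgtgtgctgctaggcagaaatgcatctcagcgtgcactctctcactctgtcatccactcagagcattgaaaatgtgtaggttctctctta
Bcl11b intron, 78.7 kb from the gene start, chr12:107924731-107925030: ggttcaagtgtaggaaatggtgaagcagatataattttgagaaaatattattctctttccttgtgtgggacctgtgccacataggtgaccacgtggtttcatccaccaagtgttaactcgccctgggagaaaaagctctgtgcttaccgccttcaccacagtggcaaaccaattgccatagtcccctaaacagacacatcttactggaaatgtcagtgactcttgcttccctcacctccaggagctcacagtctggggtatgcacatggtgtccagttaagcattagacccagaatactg
Bcl11b, past the gene end, 97.1 kb from the gene start, chr12:107906311-107906610: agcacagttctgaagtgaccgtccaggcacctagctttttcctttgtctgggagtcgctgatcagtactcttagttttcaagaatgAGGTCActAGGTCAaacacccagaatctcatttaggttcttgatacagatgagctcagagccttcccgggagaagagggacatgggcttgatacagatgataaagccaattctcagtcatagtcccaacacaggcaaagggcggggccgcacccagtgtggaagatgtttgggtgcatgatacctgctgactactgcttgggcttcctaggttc

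In the central 300 bases shown, both *Tox2* regions held 2 copies of TCAAAG and 1 copy of AGATAA. The first also held AACCACA and the other AGGTCA. The *Lef1* and *Bcl11b* regions beyond the gene ends, which were open in iNKT17 cells, each held 2 copies of AGGTCA in the bases shown. Over its whole length, the *Tox2* region at 96.0 kb held 3 copies of TCAAAG, and the *Lef1* region past the gene end 3 of AGGTCA. The *Lef1* intronic region contained a stretch of 51 bases that occurred 2 times, and reads from such a stretch can be hard to place. Over whole regions, TCAAAG occurred in 50 of the 129 members (38.8%) and in 30.5% of all regions of the table. By locus it was found in 8 of 14 regions of *Tcf7*, 7 of 21 of *Lef1*, 8 of 21 of *Tox*, 4 of 8 of *Tox2*, 9 of 23 of *Satb1* and 14 of 42 of *Bcl11b*. The other motifs occurred in 24 members (18.6%, against 17.4% of all regions) for AACCACA, 37 (28.7%, against 38.1%) for GGAAGT and 24 (18.6%, against 20.6%) for AGATAA. The AP-1 motif TGANTCA was found in 20 members (15.5%, against 15.9%), AGGTCA in 36 (27.9%, against 27.7%), AGGTGTGA in 3 (2.33%, against 2.91%) and GGANTTTCC in 2 (1.55%, against 2.45%). These matches describe the letters and are not binding sites.

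The loci were open in every subset. Of the 129 regions, 86 were accessible in all 6 groups, and each of the 129 was accessible in at least 1. *Bcl11b* was the densest, with 3.71 regions per 10 kb, and *Tox2* was the sparsest, with 0.57. There were 87 intronic regions among the members, 38 of them in *Bcl11b*, and 22 promoter regions, 10 of them in *Satb1*, which has 12 annotated starts. The region with the highest mean was a promoter at *Tox*, *Tox2* and *Satb1*, and an intronic region at *Tcf7*, *Lef1* and *Bcl11b*.

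To give 1 value per gene, the linear values of a locus were summed in each library. In C57BL/6 libraries, *Tcf7* summed to 563 and 562 in iNKT1, 553 and 524 in iNKT2 and 452 and 456 in iNKT17 cells. *Lef1* summed to 718 and 659 in iNKT1, 755 and 706 in iNKT2 and 505 and 484 in iNKT17 cells. Both TCF family loci were thus lowest in iNKT17 cells, with no overlap with the other subsets. *Tox* summed to 343 and 324 in iNKT1, 509 and 521 in iNKT2 and 377 and 371 in iNKT17 cells. *Tox2* summed to 202 and 210 in iNKT1, 304 and 345 in iNKT2 and 308 and 306 in iNKT17 cells. The TOX family loci were both lowest in iNKT1 cells, but only *Tox* stood highest in iNKT2 cells without overlap. *Satb1* summed to 421 and 404 in iNKT1, 369 and 312 in iNKT2 and 292 and 298 in iNKT17 cells. *Bcl11b* summed to 977 and 931 in iNKT1, 758 and 718 in iNKT2 and 1040 and 1031 in iNKT17 cells. *Satb1* was highest in iNKT1 and *Bcl11b* in iNKT17 cells, and neither had overlapping subsets.

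**Figure D1:**
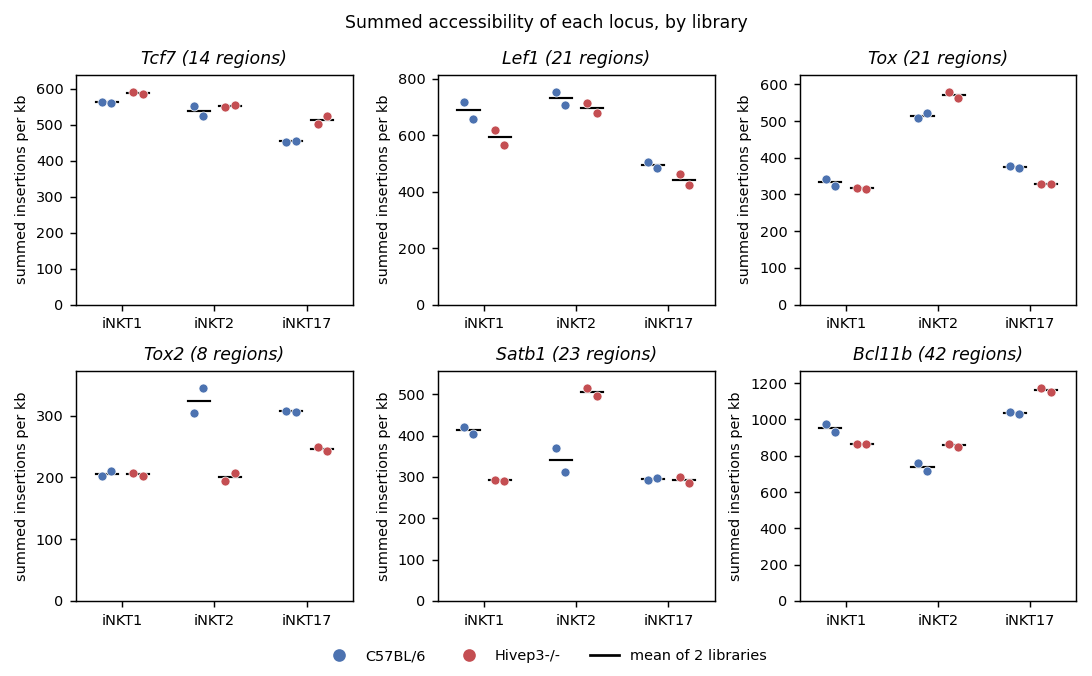
Summed accessibility of each locus in insertions per kb (y axis, from 0) for each of the 12 libraries, by subset (x axis) and genotype (colour). Points are libraries and black lines are means of 2 libraries. *Satb1* lies between 292 and 421 in C57BL/6 libraries and reaches 495 and 515 in Hivep3-/- iNKT2 libraries, and *Tox2* falls from 304 and 345 to 194 and 207 in iNKT2 libraries.

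These sums were compared with limma over 10008 protein-coding loci, and a difference was called at an adjusted p under 0.1 (Benjamini-Hochberg). Between iNKT1 and iNKT2 cells of C57BL/6 mice, 4 of the 6 sums differed, where 51.4% of all loci did. The differences of *Tcf7* (0.06, 95% interval -0.02 to 0.15) and *Lef1* (-0.09, interval -0.22 to 0.05) were not called. Between iNKT1 and iNKT17 cells all 6 differed, where 55.8% of all loci did, with log2 differences from -0.58 for *Tox2* to 0.48 for *Satb1*. Between iNKT2 and iNKT17 cells 5 differed, where 51.6% of all loci did, and *Tox2* was not called (0.08, interval -0.06 to 0.21). The *Satb1* difference between iNKT2 and iNKT17 cells (0.20, SE 0.07, adjusted p = 0.0255) was lost without C57BL/6 iNKT2 replicate 1, where it was 0.08, and without C57BL/6 iNKT17 replicate 1. The *Bcl11b* difference between iNKT1 and iNKT17 cells (-0.12, SE 0.04, adjusted p = 0.0168) was lost without C57BL/6 iNKT1 replicate 2, where it was -0.08.

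A single region was called where limma gave an adjusted p under 0.1 and the values differed 3-fold or more, with p adjusted over all regions accessible in a compared group. In C57BL/6 mice, 6 of 119 tested members were higher in iNKT1 than in iNKT2 cells and 5 were lower, where 7.33% and 8.71% of all tested regions were. Against iNKT17 cells, 9 of 121 members were higher in iNKT1 cells and 8 lower (background 9.72% and 10.8%), and 9 of 121 were higher in iNKT2 cells and 11 lower (background 7.72% and 8.49%). In the comparisons with iNKT1 cells the shares in both directions were below the background, but by few regions. Such small counts do not set the members apart from all regions. Leaving out 1 library at a time gave 8 to 13 calls between iNKT1 and iNKT2 cells. By locus, the called regions fell at *Bcl11b*, *Lef1*, *Satb1*, *Tox* and *Tox2*, and 0 of the 12 tested regions of *Tcf7* were called in any of the 3 comparisons. At *Tcf7*, 6 to 8 of the 12 had an unadjusted p under 0.05 in limma. Over all tested regions, 31728 of 58322, 33929 of 59317 and 30560 of 58866 had such a p, in the order given.

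At *Tcf7*, the strongest region, chr11:52265522-52266021 in an intron 17.2 kb into the gene, lay within 7.07 to 7.45 on the log2 scale in all 12 libraries. That region also overlaps the noncoding gene *Gm26551*. Its strongest promoter region, chr11:52283110-52283609, which overlaps *A630014C17Rik*, lay within 3.49 to 4.26. Accessibility did differ below the 3-fold limit: in C57BL/6 cells 6 of 12 tested regions were higher and 2 lower in iNKT1 than in iNKT17 cells at an adjusted p under 0.1, where 30.2% and 28.2% of all tested regions were. The largest of these 8 differences was at chr11:52267217-52267716, an intronic region with 2.79 and 2.25 in iNKT1, 3.13 and 3.04 in iNKT2 and 3.97 and 3.90 in iNKT17 cells. It went against the locus sum, being lowest in iNKT1 and highest in iNKT17 cells (log2 difference -1.42, SE 0.26, adjusted p = 0.000425).

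*Lef1* was marked by low accessibility in iNKT17 cells, with 1 exception. Of its 21 tested regions, 15 were higher and 1 was lower in C57BL/6 iNKT2 than in iNKT17 cells at an adjusted p under 0.1 (background 29% and 23.3%), and 6 of the 15 passed the 3-fold limit. The region at chr3:131138143-131138642, in an intron 27.9 kb into the gene and overlapping *Gm42449*, had 3.67 and 3.24 in iNKT2, 1.35 and 1.21 in iNKT1 and -1.38 and -0.88 in iNKT17 cells. All 3 subsets were separate there, and the difference between iNKT2 and iNKT17 cells was 4.58 (SE 0.40, adjusted p = 1.11e-06). At chr3:131115996-131116495, in an exon of a noncoding transcript 5.8 kb into the gene, the order was the same, with 4.35 and 4.62, 2.35 and 2.45, and 0.49 and 0.64. The strongest promoter region, chr3:131111857-131112356, stayed between 6.32 and 7.19 in all 6 C57BL/6 libraries, highest in iNKT2 cells. The strongest region of the locus, chr3:131208455-131208954 in an intron, lay between 7.04 and 7.34.

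The exception was chr3:131232462-131232961, 8.4 kb past the end of *Lef1*. C57BL/6 iNKT17 libraries had 4.95 and 4.58 there, iNKT1 libraries -0.42 and 0.20 and iNKT2 libraries -1.0 and -1.35. This was the largest difference between subsets among the 129 regions, with -5.94 between iNKT2 and iNKT17 cells (SE 0.43, adjusted p = 2.16e-07) and -4.88 between iNKT1 and iNKT17 cells (adjusted p = 6.65e-07). Hivep3-/- iNKT17 libraries had 4.26 and 4.43, and the 4 other Hivep3-/- libraries lay between -0.97 and -0.01. The region was thus open in iNKT17 cells of both genotypes and below the accessible level in the other groups.

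*Tox* regions leaned towards iNKT2 cells. In C57BL/6 cells 12 of 21 tested regions were lower in iNKT1 than in iNKT2 cells at an adjusted p under 0.1 and 1 was higher, where 27.9% and 27.3% of all tested regions were. The intronic region chr4:6970496-6970995, 20.8 kb into the gene, had 3.66 and 4.07 in iNKT1, 5.99 and 5.96 in iNKT2 and 5.12 and 5.08 in iNKT17 cells. The 3 subsets did not overlap, and the difference between iNKT1 and iNKT2 cells was -2.11 (SE 0.15, adjusted p = 2.58e-07). The promoter region chr4:6991006-6991505, the strongest of the locus, rose less, from 5.75 and 5.85 in iNKT1 to 6.30 and 6.55 in iNKT2 cells. A region 4.3 kb into the gene was highest in iNKT17 cells instead (2.02 in iNKT1 against 3.70 in iNKT17 cells, means of 2, adjusted p = 0.000126). Another intronic region, 219.4 kb into the gene, was higher in iNKT2 than in iNKT17 cells (3.81 against 2.08, adjusted p = 0.00141), but fell below 3-fold without C57BL/6 iNKT17 replicate 2 (1.14, adjusted p = 0.0231). With a pseudocount of 1, the differences 4.3 and 219.4 kb into the gene were -1.47 and 1.51, also below 3-fold.

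*Tox2* had its strongest region at the promoter, chr2:163203323-163203822, with 5.33 and 5.79 in iNKT1, 6.65 and 6.98 in iNKT2 and 6.93 and 7.03 in iNKT17 cells of C57BL/6 mice. iNKT1 cells were lowest there without overlap. The intronic regions shown above followed another order. At 96.0 kb into the gene, chr2:163298916-163299415 had 1.82 and 2.30 in iNKT1, 4.44 and 4.79 in iNKT2 and 1.23 and 1.83 in iNKT17 cells. It was accessible in iNKT2 cells alone among the C57BL/6 groups, by 2.55 over iNKT1 (SE 0.31, adjusted p = 1.75e-05) and 3.08 over iNKT17 cells (adjusted p = 3.27e-06). At 51.7 kb, chr2:163254549-163255048 had 3.00 and 2.98 in iNKT1, 3.42 and 3.48 in iNKT2 and 1.10 and 1.31 in iNKT17 cells, lowest in iNKT17 cells.

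At *Satb1*, 15 of 23 tested regions were higher and 0 lower in C57BL/6 iNKT1 than in iNKT17 cells at an adjusted p under 0.1 (background 30.2% and 28.2%). The largest difference was at chr17:51806690-51807189, in an exon of a noncoding transcript 26.4 kb into the gene, with 4.74 and 4.44 in iNKT1, 3.15 and 3.04 in iNKT2 and 2.20 and 2.65 in iNKT17 cells (2.16, SE 0.22, adjusted p = 1.94e-06). The subsets were separate there, in the order of the locus sums. Between iNKT1 and iNKT2 cells the largest difference was in an intron 55.3 kb into the gene, chr17:51777789-51778288, with 3.04 and 2.67 against 0.68 and 0.99 (2.02, SE 0.35, adjusted p = 0.000309, and 1.57, below 3-fold, with a pseudocount of 1). That region was accessible in C57BL/6 iNKT1 cells alone and was tested only through that group.

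*Bcl11b* held groups of neighbouring regions with different orders of the subsets. Near its far end, 3 intronic regions 74.8 to 78.7 kb into the gene were higher in iNKT1 than in iNKT2 cells in both genotypes. Between them, a region at 75.5 kb had 5.64 and 5.52 in C57BL/6 iNKT1 against 5.55 and 5.64 in iNKT2 libraries. The strongest difference, at chr12:107924631-107925130, came from 5.39 and 5.17 in iNKT1, 2.49 and 2.09 in iNKT2 and 3.15 and 3.32 in iNKT17 cells of C57BL/6 mice (2.99 between iNKT1 and iNKT2, SE 0.21, adjusted p = 2.03e-07). In the middle of the gene, between 35.1 and 56.8 kb, lay 7 of the 10 regions called lower in C57BL/6 iNKT2 than in iNKT17 cells. Their log2 differences went from -1.60 to -3.45. One of them, at 56.3 kb, was also higher in C57BL/6 iNKT1 (3.54 and 3.14) than in iNKT2 libraries (1.00 and 1.29). Past the gene end, chr12:107906211-107906710 had 3.35 and 3.12 in iNKT17, 0.51 and -1.65 in iNKT1 and -1.06 and -1.06 in iNKT2 cells. It was accessible in iNKT17 cells alone (-4.29 between iNKT2 and iNKT17, SE 0.61, adjusted p = 6.18e-05). The promoter region, chr12:108003893-108004392, varied only from 5.96 to 6.27 over all 12 libraries.

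**Figure D2:**
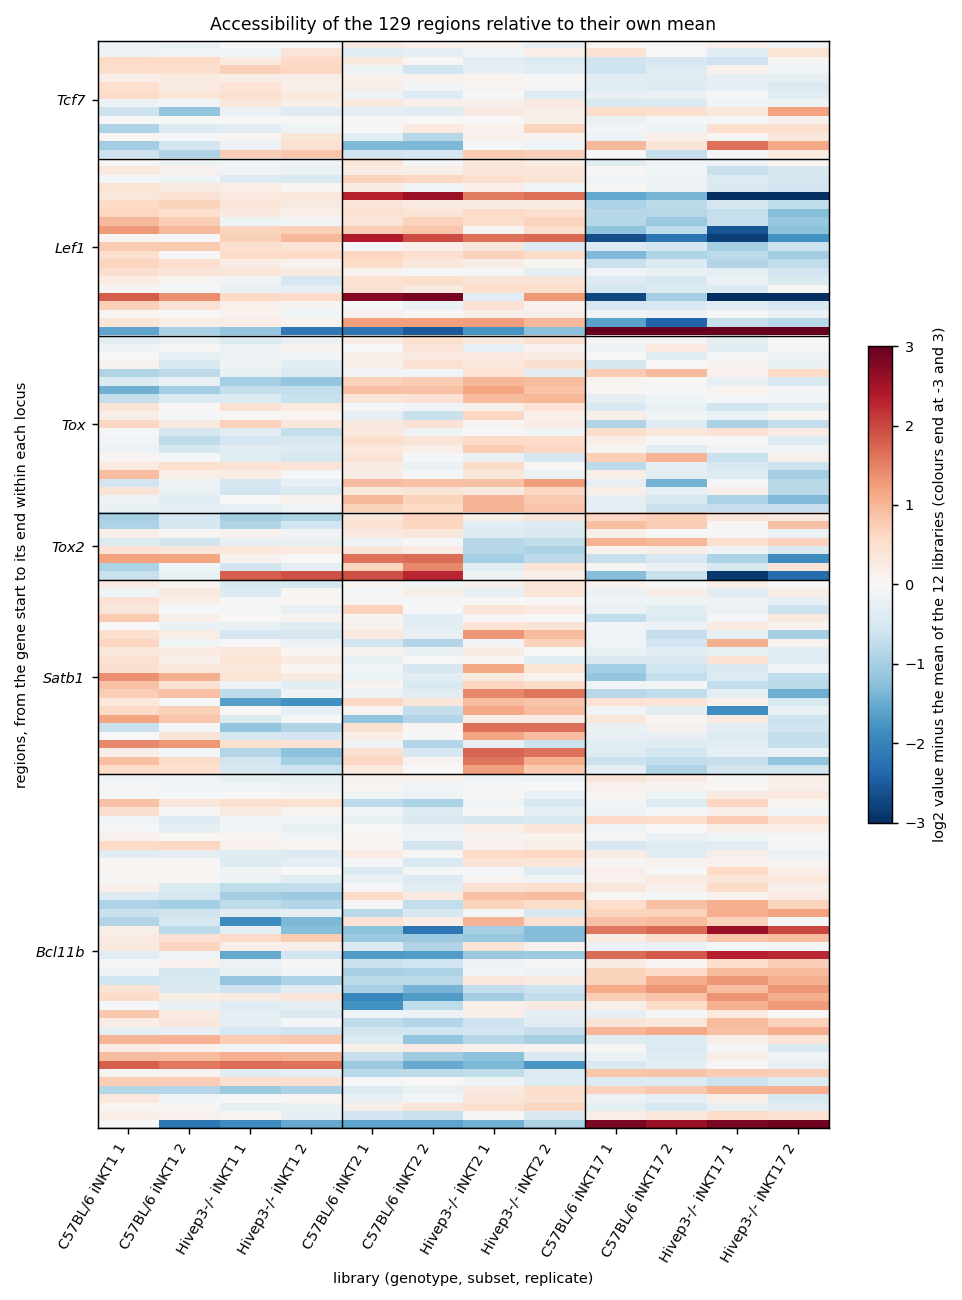
Accessibility of the 129 regions (rows, by locus and from the gene start to its end) in the 12 libraries (columns), as log2 values minus the mean of the 12 libraries, on a colour scale that ends at -3 and 3. The lowest *Lef1* row and the lowest *Bcl11b* row are the regions past the gene ends that are high in iNKT17 libraries of both genotypes, and most *Satb1* rows outside the promoters are red in Hivep3-/- iNKT2 libraries.

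In Hivep3-/- cells, 15 of 117 tested members were called between iNKT1 and iNKT2 cells, 13 of 117 between iNKT1 and iNKT17 cells and 22 of 122 between iNKT2 and iNKT17 cells, where 17.3%, 19.3% and 15.6% of all tested regions were. Of the sums, 4, 4 and 6 of the 6 loci differed, where 54.5%, 54% and 51.9% of all loci did. The *Tcf7* differences between iNKT1 and iNKT2 cells (0.09) and between iNKT2 and iNKT17 cells (0.11) were lost, the former without any 1 of its 4 libraries and the latter without any but Hivep3-/- iNKT17 replicate 2. Calls at *Bcl11b* were partly shared with C57BL/6 cells. Between iNKT1 and iNKT17 cells, 7 regions were called in both genotypes, 100% of the 7 C57BL/6 and 77.8% of the 9 Hivep3-/- calls. Between iNKT1 and iNKT2 cells 3 were shared, of 4 calls in C57BL/6 and 6 in Hivep3-/- cells. Between iNKT2 and iNKT17 cells 6 were shared, of 10 and 7 calls. How often calls recurred over all regions was not computed. At *Satb1* none were shared: 2, 3 and 0 regions were called in C57BL/6 cells in the 3 comparisons and 6, 0 and 7 in Hivep3-/- cells. In Hivep3-/- cells the *Satb1* sum was highest in iNKT2 cells, with 515 and 495 against 292 and 290 in iNKT1 and 299 and 286 in iNKT17 cells. The difference between iNKT1 and iNKT2 cells, 0.28 in C57BL/6 cells (adjusted p = 0.00462), was -0.79 in Hivep3-/- cells (adjusted p = 1.26e-06).

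The genotypes were then compared within each subset. In iNKT1 cells 1 of 116 tested members was higher in Hivep3-/- cells and 1 was lower at 3-fold, where 0.89% and 0.264% of all tested regions were. In iNKT2 cells 2 of 118 were higher and 3 lower, where 0.474% and 1.2% were. In iNKT17 cells 0 of 111 were called, where 0.133% and 0.138% were higher and lower. Of the 111, 26 had an unadjusted p under 0.05 in limma, as had 8570 of all 54311 tested regions. At an adjusted p under 0.1 with any fold, 4 members were higher and 17 lower in iNKT1 cells (background 5.49% and 3.93%), 24 higher and 8 lower in iNKT2 cells (background 8.26% and 8.16%) and 3 higher and 4 lower in iNKT17 cells (background 2.66% and 1.99%). Of the lower members in iNKT1 cells 10 were at *Satb1*, and of the higher members in iNKT2 cells 11 were at *Satb1* and 10 at *Bcl11b*. Between the genotypes the sums of 3 loci differed in iNKT1, those of 4 in iNKT2 and those of 4 in iNKT17 cells, where 9.55%, 18.2% and 7.1% of all loci did. The depth measure was 227 and 491 in Hivep3-/- against 139 and 170 in C57BL/6 iNKT1 libraries, and 91 and 118 against 219 and 159 in iNKT2 libraries, and its part in the differences between the genotypes was not tested. In bulk libraries, fewer cells with an open region and less signal per cell cannot be told apart.

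*Satb1* changed in opposite directions in iNKT1 and iNKT2 cells. In iNKT1 cells, 22 of 23 regions were below 0 (median change -0.71, against -0.02 over all tested regions), and the sum fell from 421 and 404 to 292 and 290 (log2 change -0.50, SE 0.07, adjusted p = 0.00103). In iNKT2 cells, 20 of 21 tested regions were above 0 (median 0.78, against -0.0011 over all tested regions), and the sum rose from 369 and 312 to 515 and 495 (0.57, SE 0.07, adjusted p = 0.000246). In iNKT17 cells the sums were 292 and 298 against 299 and 286 and were not called (-0.01, 95% interval -0.16 to 0.14). The calls in iNKT1 and iNKT2 cells held when each of the 4 libraries was left out in turn. Beside the fall in iNKT1 cells stands the lower sum of the iNKT2 marker promoters in the same libraries, given above, and its part was not tested.

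The *Satb1* region with the largest fall, chr17:51800147-51800646 in an intron 32.9 kb into the gene, had 4.0 and 3.61 in C57BL/6 and 2.01 and 1.85 in Hivep3-/- iNKT1 cells (-1.88, SE 0.22, adjusted p = 0.000287). It is also within 1000 bp of the start of *Gm37248*. The same region had 4.29 and 4.02 against 4.59 and 4.50 in iNKT2 cells, and 4.10 and 4.08 against 3.80 and 3.19 in iNKT17 cells. The closing in iNKT1 cells was thus larger than the spread of the libraries, and Hivep3-/- iNKT1 was the only one of the 6 groups in which the region fell below the accessible level. At chr17:51802862-51803361, 30.2 kb into the gene, iNKT2 libraries rose from 1.69 and 1.53 to 3.31 and 3.46 (1.78, SE 0.38, adjusted p = 0.00988), while iNKT1 libraries had 2.61 and 2.76 against 1.10 and 1.73. C57BL/6 iNKT2 and Hivep3-/- iNKT1 cells were below the accessible level there. The third called region, chr17:51736840-51737339, covers part of an exon and UTR near the gene end, and rose in iNKT2 cells from 3.31 and 2.30 to 4.55 and 4.45 (1.69, SE 0.30, adjusted p = 0.00328). Without C57BL/6 iNKT2 replicate 2 this change was 1.19, below 3-fold. With a pseudocount of 1 both *Satb1* changes called in iNKT2 cells fell below 3-fold, to 1.5 at 30.2 kb and 1.55 near the gene end, and their adjusted p stayed under 0.1.

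The promoter regions of *Satb1* had smaller median changes than the rest of the locus. The strongest promoter region, chr17:51833022-51833521, which also overlaps *Gm6934*, had 5.81 and 6.21 in C57BL/6 and 5.51 and 5.96 in Hivep3-/- iNKT1 cells, and 5.89 and 6.11 against 5.70 and 6.31 in iNKT2 cells. The libraries of the genotypes overlapped in both subsets. Over the 10 promoter regions the median change was -0.28 in iNKT1 and 0.15 in iNKT2 cells, and over the 13 other regions it was -0.91 and 1.00. All 13 other regions were lower in iNKT1 and higher in iNKT2 cells of Hivep3-/- mice. Among them, the regions 73.0 and 55.3 kb into the gene were below the accessible level in iNKT2 cells of both genotypes. They were not tested there, and the medians of the 13 regions include them.

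**Figure D3:**
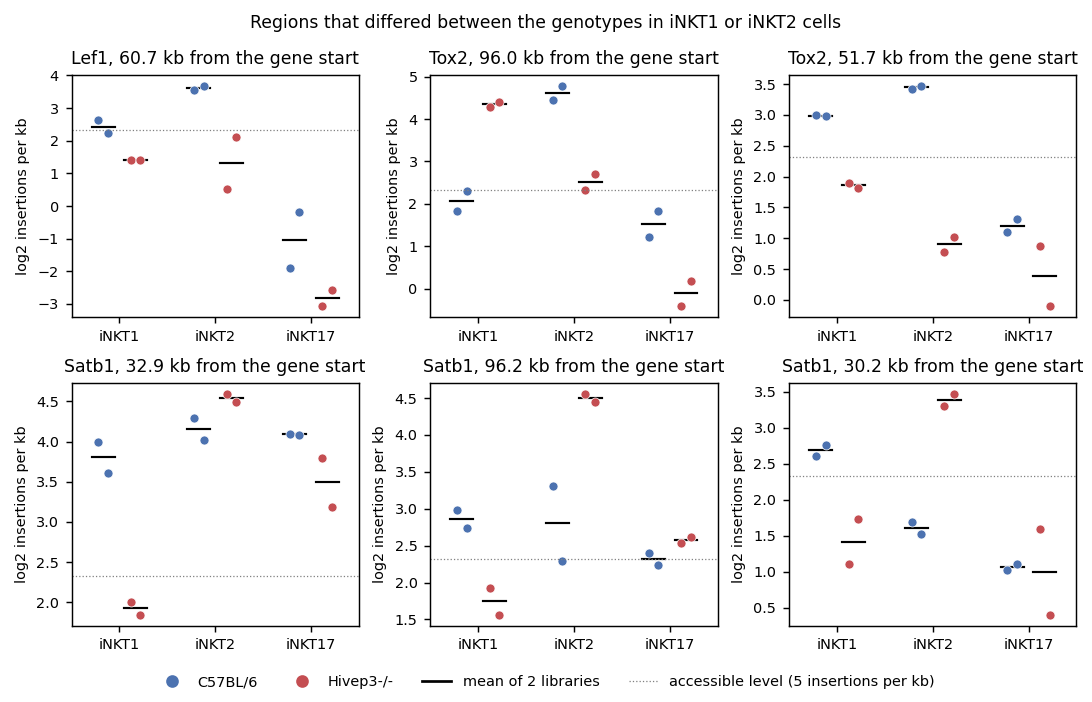
Log2 insertions per kb (y axis, own range in each panel) of the 6 regions called between the genotypes, in the 12 libraries by subset (x axis) and genotype (colour). Black lines are means of 2 libraries and the dotted line is the accessible level of 5 insertions per kb. The *Tox2* region at 96.0 kb rises to 4.28 and 4.41 in Hivep3-/- iNKT1 libraries and falls to 2.34 and 2.70 in Hivep3-/- iNKT2 libraries.

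The largest change between the genotypes among the tested members was at *Tox2*, 51.7 kb into the gene, and another *Tox2* region changed in opposite directions in iNKT1 and iNKT2 cells. That intronic region at 96.0 kb, which carries 2 copies of TCAAAG in the sequence above, rose in iNKT1 cells from 1.82 and 2.30 to 4.28 and 4.41 (2.28, SE 0.31, adjusted p = 0.000768). In iNKT2 cells it fell from 4.44 and 4.79 to 2.34 and 2.70 (-2.09, SE 0.31, adjusted p = 0.00124). In iNKT17 cells it had 1.23 and 1.83 against -0.41 and 0.19, was not accessible in either genotype and was therefore not tested. iNKT2 cells were highest at this region in C57BL/6 mice and iNKT1 cells in Hivep3-/- mice, by 1.82 over iNKT2 cells (SE 0.31, adjusted p = 0.000231). The calls at this region held when each library of the compared groups was left out in turn.

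The *Tox2* region at 51.7 kb fell in iNKT2 cells from 3.42 and 3.48 to 0.78 and 1.02 (-2.55, SE 0.34, adjusted p = 0.000655), and in iNKT1 cells from 3.00 and 2.98 to 1.90 and 1.82 (-1.13, adjusted p = 0.0704, under 3-fold). All 8 regions of the locus were below 0 in iNKT2 cells, where 27615 of all 55049 tested regions were. Their changes went from -2.55 to -0.23, and for 6 of them the adjusted p was under 0.1. The sum fell in iNKT2 cells from 304 and 345 to 194 and 207 (-0.70, SE 0.06, adjusted p = 4.4e-05) and in iNKT17 cells from 308 and 306 to 249 and 243 (-0.32, adjusted p = 0.0157). The iNKT17 call was lost without C57BL/6 iNKT17 replicate 1 (adjusted p = 0.126). In iNKT1 cells the sums were 202 and 210 against 208 and 203 and were not called (-0.01, interval -0.14 to 0.13).

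**Figure D4:**
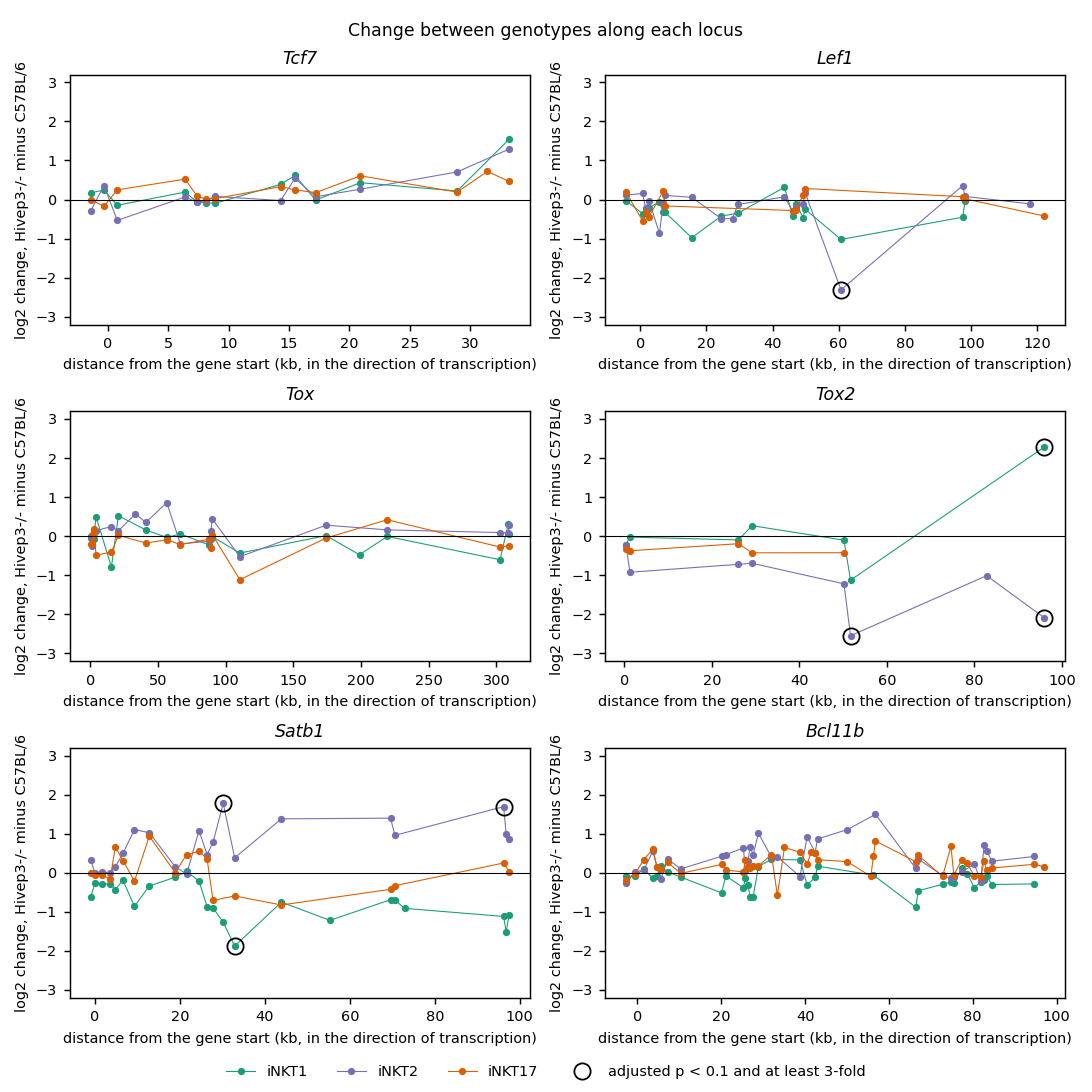
Log2 change from C57BL/6 to Hivep3-/- cells (y axis) of each tested region by its distance from the gene start in kb (x axis), in iNKT1, iNKT2 and iNKT17 cells (colours). Circles mark the called regions, 2 in iNKT1 and 5 in iNKT2 cells. At *Satb1* the iNKT1 and iNKT2 lines part at 9.3 kb, between promoter regions, and lie farthest apart at 30.2 kb. At *Tcf7* 0 regions are circled.

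*Lef1* had 1 called region, chr3:131170957-131171456, in the intronic sequence with the repeated stretch. It fell in iNKT2 cells from 3.56 and 3.69 to 0.51 and 2.12 (-2.31, SE 0.61, adjusted p = 0.0285), with the Hivep3-/- libraries far apart. The call was lost without C57BL/6 iNKT2 replicate 1 (adjusted p = 0.133), without C57BL/6 iNKT2 replicate 2 (adjusted p = 0.157) and without Hivep3-/- iNKT2 replicate 1, where the change was -1.51 (adjusted p = 0.213). In iNKT1 cells 17 of 18 tested *Lef1* regions were below 0, as were 28900 of all 54145 tested regions. The *Lef1* sum went from 718 and 659 to 617 and 567 (-0.22, SE 0.06, adjusted p = 0.0561). That call was lost without C57BL/6 iNKT1 replicate 1 (adjusted p = 0.427) and without Hivep3-/- iNKT1 replicate 2 (adjusted p = 0.422).

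*Tcf7* had no region at 3-fold in any subset. The region nearest the limit, chr11:52249568-52250067, lies 2.6 kb past the gene end and within *Gm26551*. It rose from 1.82 and 1.55 to 3.19 and 3.27 in iNKT1 cells (1.54, SE 0.28, adjusted p = 0.00515) and from 1.88 and 1.93 to 3.23 and 3.17 in iNKT2 cells (1.29, adjusted p = 0.0104). The iNKT17 libraries had 2.46 and 1.74 against 2.40 and 2.75. The *Tcf7* sum was not called in iNKT1 (0.07, 95% interval -0.02 to 0.15) or iNKT2 cells (0.04, interval -0.05 to 0.12). In iNKT17 cells it rose from 452 and 456 to 502 and 525 (0.18, SE 0.04, adjusted p = 0.0291), a call lost without C57BL/6 iNKT17 replicate 1 (adjusted p = 0.202), without C57BL/6 iNKT17 replicate 2 (adjusted p = 0.105) and without Hivep3-/- iNKT17 replicate 2 (adjusted p = 0.181).

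*Tox* and *Bcl11b* shifted by small amounts. *Tox* rose in iNKT2 cells from 509 and 521 to 580 and 563 (0.15, SE 0.04, adjusted p = 0.0363) and fell in iNKT17 cells from 377 and 371 to 328 and 328 (-0.19, SE 0.04, adjusted p = 0.0292). The *Tox* call in iNKT2 cells was lost without either C57BL/6 library or without Hivep3-/- replicate 1 (adjusted p of up to 0.2), and the call in iNKT17 cells was lost without any 1 of the 4 libraries (adjusted p of up to 0.216). Among its regions, chr4:6975674-6976173, in an intron 15.6 kb into the gene, fell in iNKT1 cells from 5.35 and 5.55 to 4.73 and 4.58 (-0.79, SE 0.11, adjusted p = 0.000876). *Bcl11b* rose in iNKT2 cells from 758 and 718 to 867 and 848 (0.22, SE 0.04, adjusted p = 0.00232), with 29 of 36 tested regions above 0, where 27430 of all 55049 were. It rose in iNKT17 cells from 1040 and 1031 to 1173 and 1153 (0.17, adjusted p = 0.0252) and fell in iNKT1 cells from 977 and 931 to 866 and 864 (-0.14, adjusted p = 0.0406). The *Bcl11b* call in iNKT17 cells was lost without either C57BL/6 library or without Hivep3-/- replicate 1 (adjusted p of up to 0.145), and the call in iNKT1 cells without C57BL/6 replicate 1 or either Hivep3-/- library (adjusted p of up to 0.336).

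An interaction term tested if Hivep3-/- cells of 1 subset had changed otherwise than those of another. Between iNKT1 and iNKT2 cells, 13 of 123 tested members were called lower and 1 higher, where lower means a change that was more negative in iNKT1 cells, against a background of 1% and 2.06%. Of the 13, 11 were at *Satb1*, where none of the 10 promoter regions and 11 of the 13 other regions were called, and 2 were at *Bcl11b*. The largest *Satb1* difference was -3.04 (SE 0.54, adjusted p = 0.00592), at the region 30.2 kb into the gene. That region was accessible only in C57BL/6 iNKT1 (linear mean 6.44) and Hivep3-/- iNKT2 cells (10.5), and entered the test through these groups. Its linear means were 2.73 in Hivep3-/- iNKT1 and 3.05 in C57BL/6 iNKT2 cells. The *Satb1* region at 55.3 kb entered the test through C57BL/6 iNKT1 cells alone. The member called higher was the *Tox2* region at 96.0 kb, with 4.38 (SE 0.44, adjusted p = 0.000449). The sums of 4 loci differed in their change, where 11.5% of all loci did: *Satb1* by -1.07 (SE 0.09, adjusted p = 0.000146), *Tox2* by 0.69 (adjusted p = 0.000944), *Bcl11b* by -0.36 (adjusted p = 0.00169) and *Tox* by -0.23 (adjusted p = 0.0411). The *Tox* difference was lost without C57BL/6 iNKT1 replicate 1 (-0.19, adjusted p = 0.167), and also without either Hivep3-/- iNKT1 library, without C57BL/6 iNKT2 replicate 1 or without Hivep3-/- iNKT2 replicate 1.

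**Figure D5:**
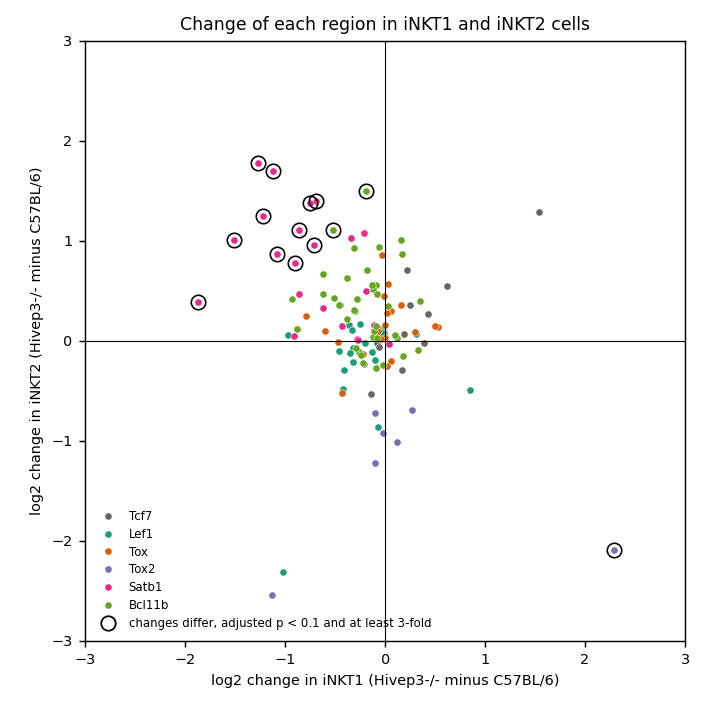
Log2 change from C57BL/6 to Hivep3-/- cells of each tested region in iNKT1 (x axis) and iNKT2 cells (y axis), coloured by locus. Circles mark the 14 regions whose changes differed between the subsets. *Satb1* regions fill the upper left and the *Tox2* region at 96.0 kb stands alone at the lower right.

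Against iNKT17 cells the differences were fewer. Between iNKT1 and iNKT17 cells, 2 of 125 members were called higher and 0 lower, where 1.05% and 0.372% of all tested regions were, and 2 sums differed, where 3.77% of all loci did. The *Tox2* region at 96.0 kb had a difference of 3.92 (SE 0.44, adjusted p = 0.00128), and the sum of *Satb1* one of -0.49 (SE 0.09, adjusted p = 0.0222). The *Tox2* difference includes a fall in iNKT17 cells from 1.53 to -0.11 (means of 2), below the accessible level in both genotypes. Between iNKT2 and iNKT17 cells, 2 of 126 members were called higher and 1 lower, where 0.338% and 0.685% were, and 3 sums differed, where 4.31% of all loci did. The higher members were *Satb1* regions 69.6 and 43.9 kb into the gene, and the sum of *Satb1* differed by 0.58 (SE 0.09, adjusted p = 0.00948). The call 43.9 kb into the gene was lost without any 1 library other than Hivep3-/- iNKT17 replicate 2, with an adjusted p of up to 0.26.

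A list of 16 paralogs and partners, chosen for their known link to these factors, such as β-catenin (*Ctnnb1*), the BCL9 coactivators, the TLE corepressors and *Axin2*, had regions at 14 genes and 121 regions in all. Between the genotypes 0 of 104 tested regions were called in iNKT1 cells, where 0.89% and 0.264% of all tested regions were higher and lower in Hivep3-/- cells. In iNKT2 cells 1 of 110 was called, as higher (background 0.474% and 1.2%), and in iNKT17 cells 0 of 105 (background 0.133% and 0.138%). With shares this low, these counts do not set the list apart from all regions. At an unadjusted p under 0.05 in limma there were 18 regions in iNKT1 and 25 in iNKT17 cells. The call in iNKT2 cells was at *Tle4*, a TLE corepressor (1.76, SE 0.36, adjusted p = 0.00763). Between the subsets of C57BL/6 mice, 4 were called higher and 11 lower of 113 in iNKT1 against iNKT2 cells (background 7.33% and 8.71%). In iNKT1 against iNKT17 cells 7 and 10 of 110 were called (background 9.72% and 10.8%), and in iNKT2 against iNKT17 cells 6 and 2 of 110 (background 7.72% and 8.49%). *Bcl9* had 3 of the 11 lower regions, and *Tle3* and *Tle1* had 4 and 3 of the 10.

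The genes whose summed accessibility followed each member most closely over the 12 libraries were sought among 5720 genes with at least 5 regions. They were *Arpc1a* for *Tcf7* (Pearson r = 0.973), followed by *Lck*, the kinase of the T cell receptor (0.959). *Ddx54* came first for *Lef1* (0.978), *Camk2a* for *Tox* (0.990), *Il17rd* for *Tox2* (0.933), *Trim71* for *Satb1* (0.926) and *Rasgrp1*, a Ras activator in T cells, for *Bcl11b* (0.969). The 12 points share 6 groups of 2 libraries, so these values describe the pattern over groups.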

How the data were processed

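As deposited, the authors' log2 values give transposase insertions per kb in 500 bp regions of mm10, after the reads were trimmed with Trimmomatic 0.39 (per the labels), mapped with the ENCODE pipeline, counted with chromVAR and normalized with voom. The versions of the other tools are not given in the sources used here. Depth cannot be read from such values, no counting interval can be given, and low values take few distinct steps in some libraries. Each of the 12 columns was mapped to a library by its name, and no 2 libraries held identical values.

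The members and lists were chosen with earlier results of these data known. In R 4.3.3, limma 3.58.1 (empirical Bayes with trend) fitted 6 group means to the 12 libraries (6 residual and 7.17 prior degrees of freedom), after a test on simulated data. Tests covered the regions accessible (linear mean of 5 or more) in a compared group, with Benjamini-Hochberg adjustment over all of them, and a call needed 3-fold and an adjusted p under 0.1. Locus sums were fitted the same way over 10008 genes with at least 3 regions. Regions were named by rule: the strongest promoter region and strongest region of a locus, up to 4 called regions per comparison of genotypes, the largest rise and fall per comparison of subsets, and called interactions. Regions below 3-fold and those of the *Tcf7* end were added after their values were seen. Like genes share no region with the member. A listed marker gene is not reported here. Motifs were searched with Python 3.11.15, numpy 2.4.6, pandas 2.3.3, pysam 0.24.0 and samtools 1.23.1, and figures drawn with matplotlib 3.10.9.

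The titles number the libraries as mice, and the methods describe pools that were mixed for transposition. Deviations of same-numbered libraries from their group means correlated with 0.12 to 0.167 between subsets of a genotype and 0.113 to 0.171 between genotypes, over all 63309 regions. The numbers were therefore taken to pair the libraries, from the values rather than from a stated batch, and a replicate block was fitted as an alternative. The other alternatives were no filter, a pseudocount of 1, quantile normalization, only the compared groups, each library left out, a 2-fold limit and a flank of 50 kb.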

Additional observations from a re-analysis of the deposited data

Results flagged for a closer look

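These results are given because the change between the genotypes differed between subsets in a test of the interaction, as the change in the subset named first minus that in the other. All are log2 values.

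Between iNKT1 and iNKT2 cells, the 11 *Satb1* regions had differences of -1.97 (9.3 kb into the gene), -1.68 (27.8 kb), -3.04 (30.2 kb), -2.26 (32.9 kb), -2.13 (43.9 kb), -2.47 (55.3 kb), -2.09 (69.6 kb) and -1.67 (70.6 kb). Those at the gene end had -2.81 (96.2 kb), -2.51 (96.8 kb) and -1.95 (97.5 kb). Of these regions, the one at 70.6 kb is also a promoter region of *C230085N15Rik*. The region at 55.3 kb was accessible in C57BL/6 iNKT1 cells alone (linear mean 7.30, against 1.79 to 4.23 in the other groups). It entered the test only through that group. The region at 30.2 kb was accessible only in C57BL/6 iNKT1 and Hivep3-/- iNKT2 cells. The *Bcl11b* regions 56.8 and 50.1 kb into the gene had -1.69 and -1.63. Of the compared groups, both were accessible in Hivep3-/- iNKT2 cells alone. The call at 56.8 kb was lost without C57BL/6 iNKT2 replicate 1 (-1.16, adjusted p = 0.12), without C57BL/6 iNKT1 replicate 1 (adjusted p = 0.134) and without either Hivep3-/- iNKT1 library (adjusted p = 0.134 and 0.117). The call at 50.1 kb fell below 3-fold without C57BL/6 iNKT1 replicate 2, Hivep3-/- iNKT1 replicate 1 or Hivep3-/- iNKT2 replicate 1, with -1.57, -1.51 and -1.58. With a pseudocount of 1 these *Bcl11b* differences were -1.31 and -1.29. The *Tox2* region at 96.0 kb had 4.38. The summed signals had -1.07 for *Satb1*, 0.69 for *Tox2*, -0.36 for *Bcl11b* and -0.23 for *Tox*.

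Between iNKT1 and iNKT17 cells, the *Tox2* region at 96.0 kb had 3.92 and the *Lef1* region 5.8 kb into the gene had 1.78. Both regions were below the accessible level in iNKT17 cells of both genotypes. The *Lef1* call (adjusted p = 0.0393 in limma) was lost without any 1 of 5 libraries: C57BL/6 iNKT1 replicate 1, both Hivep3-/- iNKT1 libraries and C57BL/6 iNKT17 replicate 2, with an adjusted p of up to 0.17, and Hivep3-/- iNKT17 replicate 1, where it was 1.55. With a pseudocount of 1 it was 0.75 (adjusted p = 0.179). The summed signals had -0.49 for *Satb1* and -0.31 for *Bcl11b*. Between iNKT2 and iNKT17 cells, the *Satb1* regions at 69.6 and 43.9 kb had 1.82 and 2.20, and the *Tox2* region at 51.7 kb had -1.73. Of the compared groups, this *Tox2* region was accessible in C57BL/6 iNKT2 cells alone (linear mean 10.9). The *Tox2* call (adjusted p = 0.0981 in limma) and the *Satb1* call at 43.9 kb (adjusted p = 0.0846) were each lost without any 1 library other than Hivep3-/- iNKT17 replicate 2. The summed signals had 0.58 for *Satb1*, 0.34 for *Tox* and -0.37 for *Tox2*, and the *Tox2* sum was lost without any 1 library other than C57BL/6 iNKT2 replicate 1 and Hivep3-/- iNKT2 replicate 2.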

How the results depend on the processing

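With the replicate block that pairs same-numbered libraries, the counts of called members were 2, 5, 0, 11, 17, 20, 15, 13, 22, 14, 2 and 4, which added 1 call in the last comparison and moved no other count. The pairing changed no call among the named regions and locus sums. These counts are given in the order of the genotype comparisons in iNKT1, iNKT2 and iNKT17 cells, the subset comparisons (iNKT1 against iNKT2, iNKT1 against iNKT17, iNKT2 against iNKT17) in C57BL/6 and then in Hivep3-/- cells, and the 3 interactions in the same order. A 2-fold limit raised them to 9, 15, 1, 23, 42, 33, 32, 32, 41, 22, 4 and 5. Leaving out 1 library at a time gave 2 to 3, 4 to 6, 0 to 1, 8 to 13, 17 to 19, 17 to 20, 13 to 18, 12 to 16, 19 to 24, 11 to 16, 1 to 4 and 1 to 3. A pseudocount of 1 left 3 calls between the genotypes in iNKT2 cells, 7 in C57BL/6 mice for iNKT1 against iNKT17 cells and 13 for iNKT2 against iNKT17 cells, and 1 in the interaction of iNKT1 and iNKT17 cells. Without the filter 2 regions were called between the genotypes in iNKT17 cells. With 50 kb on either side of the gene, 17 were called between iNKT1 and iNKT2 cells of C57BL/6 mice. With only the compared groups in the fit, the interactions with iNKT17 cells had 1 call each. Quantile normalization moved no count by more than 1.5 times. The libraries already had nearly equal linear sums (1915051 to 1919037), and several shared the same lowest value. This alternative could therefore move little and says little on the normalization. No named region or locus sum that was called changed its direction under an alternative run on it. Among calls of named regions, 10 were lost and 40 kept with a pseudocount of 1, and over all left-out libraries 33 were lost and 207 kept. For the locus sums these were 40 lost and 192 kept on leaving out a library. Quantile normalization lost the call of 1 named region, the *Tox2* interaction at 51.7 kb between iNKT2 and iNKT17 cells. With only the compared groups in the fit, 3 named regions and 5 locus sums lost their calls. Among these sums were the *Tcf7* and *Tox* changes between the genotypes in iNKT17 cells (adjusted p = 0.103 and 0.111 in limma). The cause of these losses was not tested. Low values came in fewer steps in some libraries, with 85 and 73 distinct values up to the median in Hivep3-/- iNKT17 cells, and the part of depth was not tested.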
